A study of Mus musculus with 4 samples.

Results

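The 9 genes examined here encode the subunits of the AMPA receptors (Gria1, Gria2, Gria3 and Gria4) and of the kainate receptors (Grik1, Grik2, Grik3, Grik4 and Grik5), out of 21853 protein-coding genes in the annotation. They were chosen by name, and every m6A peak that touched an exon of any of their transcripts in GENCODE release M21 (mouse genome build mm10, the same sequence as GRCm38) was taken. This gave 35 of the 38533 peaks of replicate 1 and 31 of the 30134 peaks of replicate 2. In 23 places the lists had bases in common, and these common bases are called shared intervals.

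The peaks come from m6A-seq, in which fragmented mRNA is pulled down with an antibody against N6-methyladenosine (m6A) and sequenced next to RNA that was not pulled down (input). There are 2 samples of pulled-down RNA (IP) and 2 of input, 4 in all and of 1 group: whole brain of mice at 4 weeks of age, of strain C57BL/6J by the labels and Prrc2a flox/flox by the series' design text. These mice thus carry floxed alleles of Prrc2a, a candidate m6A-binding protein, and the labels of this series name no Cre driver. How many animals stand behind each sample is not given in the sources used here. Each IP replicate has its own list of peaks with the fold enrichment of IP over input, a linear ratio, and the input samples enter only through that ratio. There is no second condition to compare, so the values of both lists are given side by side and no test was run. The lists hold no read counts, so the depth is unknown. They also hold no expression level, so that little RNA and little methylation cannot be told apart where a peak is absent. Peaks in both lists lay over 4 of 4 marker genes of neurons, 4 of 4 of astrocytes, 4 of 4 of oligodendrocytes and 3 of 3 of microglia. Of all protein-coding genes, 54.3% had an exonic peak in replicate 1 and 49.5% in replicate 2. Common peaks of at least 2-fold enrichment in both lists lay over 3, 3, 1 and 2 of these markers, in the same order, and over 36.8% of all genes. The members' signal cannot be assigned to one of these cell types.

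AMPA receptors are glutamate-gated channels that carry most fast excitatory transmission in the brain, and they assemble from the GluA subunits that the Gria genes encode. Kainate receptors assemble from the GluK subunits of the Grik genes and mainly modulate transmitter release and neuronal excitability, before and after the synapse. m6A is deposited on mRNA while it is made, mostly at an adenosine within a short sequence around GGAC, and is known to gather near stop codons and in long exons. It influences the stability, transport and translation of an mRNA.

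Sequences around motif matches within shared intervals are shown first, as a description. They were picked for holding the motif, so they say nothing about a link between motif and peak. For each gene the strongest shared interval was searched for GGACT, and for GGAC where no GGACT was found, on the strand of the gene. The strongest interval is the one whose lower value of both fold enrichments was highest. For Grik2 the next interval was used, since its strongest one held no GGAC. Capitals mark the motif, and all sequences run 5′ to 3′ in the sense of the mRNA (GRCm38). Coordinates are followed by the strand.
Gria1, coding sequence, exon 16, chr11:57327520-57327620, plus strand: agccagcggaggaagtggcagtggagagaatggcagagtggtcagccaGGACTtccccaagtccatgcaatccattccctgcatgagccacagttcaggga
Gria2, 3′ UTR, exon 16, chr3:80688334-80688363, minus strand: gaggaagcgtggtGGACatgcacagctaac
Gria4, 3′ UTR, exon 17, chr9:4420000-4420029, minus strand: catcctgagtgccGGACagaaccagtgcat
Grik1, 3′ UTR, exon 18, chr16:87896133-87896153, minus strand: acacatatttggaGGACagat
Grik2, 3′ UTR, exon 17, chr10:49100124-49100153, minus strand: ttgataagactggGGACTtgtcacctatac
Grik3, 3′ UTR, exon 16, chr4:125708888-125708917, plus strand: gcagaagaaatatGGACTctataaaaatcc
Grik4, 3′ UTR, exon 21, chr9:42520799-42520828, minus strand: tggcagcagcgaaGGACcatggagccaggc
Grik5, 3′ UTR, exon 20, chr7:25010143-25010172, minus strand: gcgcagagaccgaGGACTctaagggccacg
Neither shared interval of Gria3 held GGAC, so no sequence is shown for it.

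The coding sequence ends of 7 genes follow, the 6 whose shared interval covered the stop codon and Grik3, whose stop codon was covered by the replicate 1 peak only. In Gria3 the replicate 2 peak alone covered the stop codon, and its coding end, which held no GGAC, is not printed. Each line holds the last 60 coding bases and the stop codon. Capitals mark GGAC and, at the end of each line, the stop codon.
Gria1, exon 16, chr11:57327584-57327646, plus strand: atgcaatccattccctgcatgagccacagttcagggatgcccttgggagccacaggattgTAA
Gria4, exon 17, chr9:4420152-4420214, minus strand: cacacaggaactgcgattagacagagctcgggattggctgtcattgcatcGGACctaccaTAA
Grik1, exon 18, chr16:87896196-87896258, minus strand: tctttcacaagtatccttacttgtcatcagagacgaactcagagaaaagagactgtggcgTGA
Grik2, exon 17, chr10:49101108-49101170, minus strand: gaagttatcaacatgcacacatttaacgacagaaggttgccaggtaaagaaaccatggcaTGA
Grik3, exon 16, chr4:125708029-125708091, plus strand: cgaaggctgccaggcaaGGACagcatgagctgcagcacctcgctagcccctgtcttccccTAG
Grik4, exon 21, chr9:42520829-42520891, minus strand: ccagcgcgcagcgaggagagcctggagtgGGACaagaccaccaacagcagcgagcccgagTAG
Grik5, exon 20, chr7:25010369-25010431, minus strand: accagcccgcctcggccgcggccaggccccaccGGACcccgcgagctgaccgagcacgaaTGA

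m6A peaks lay over exons of all 9 receptor genes in both replicates, and each gene had at least 1 shared interval. Among all protein-coding genes, 54.3% had a replicate 1 peak over an exon, 49.5% a replicate 2 peak and 45.5% a shared interval. At least 2-fold enrichment of a shared interval, in replicate 1 as well as in replicate 2, was found in 9 of 9 members and in 36.8% of all genes. The members are long: the exons of 1 gene together covered 5168 nt to 15548 nt, with a median of 6721 nt, against 4909 nt for all genes with a shared interval. Per kb of exon the median member had 0.193 shared intervals, and the median of all genes with one was 0.399. Gria1 (0.827 per kb) and Grik3 (0.669 per kb) were above the latter value, and the other 7 members lay between 0.149 and 0.226. The number of shared intervals ran from 1 in Gria4, Grik1, Grik4 and Grik5 to 5 in Gria1 and 6 in Grik3, with 3 each in Gria2 and Grik2 and 2 in Gria3. Of all genes with a shared interval, 40.7% had 1 and 9.40% had 5 or more.

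**Figure D1:**
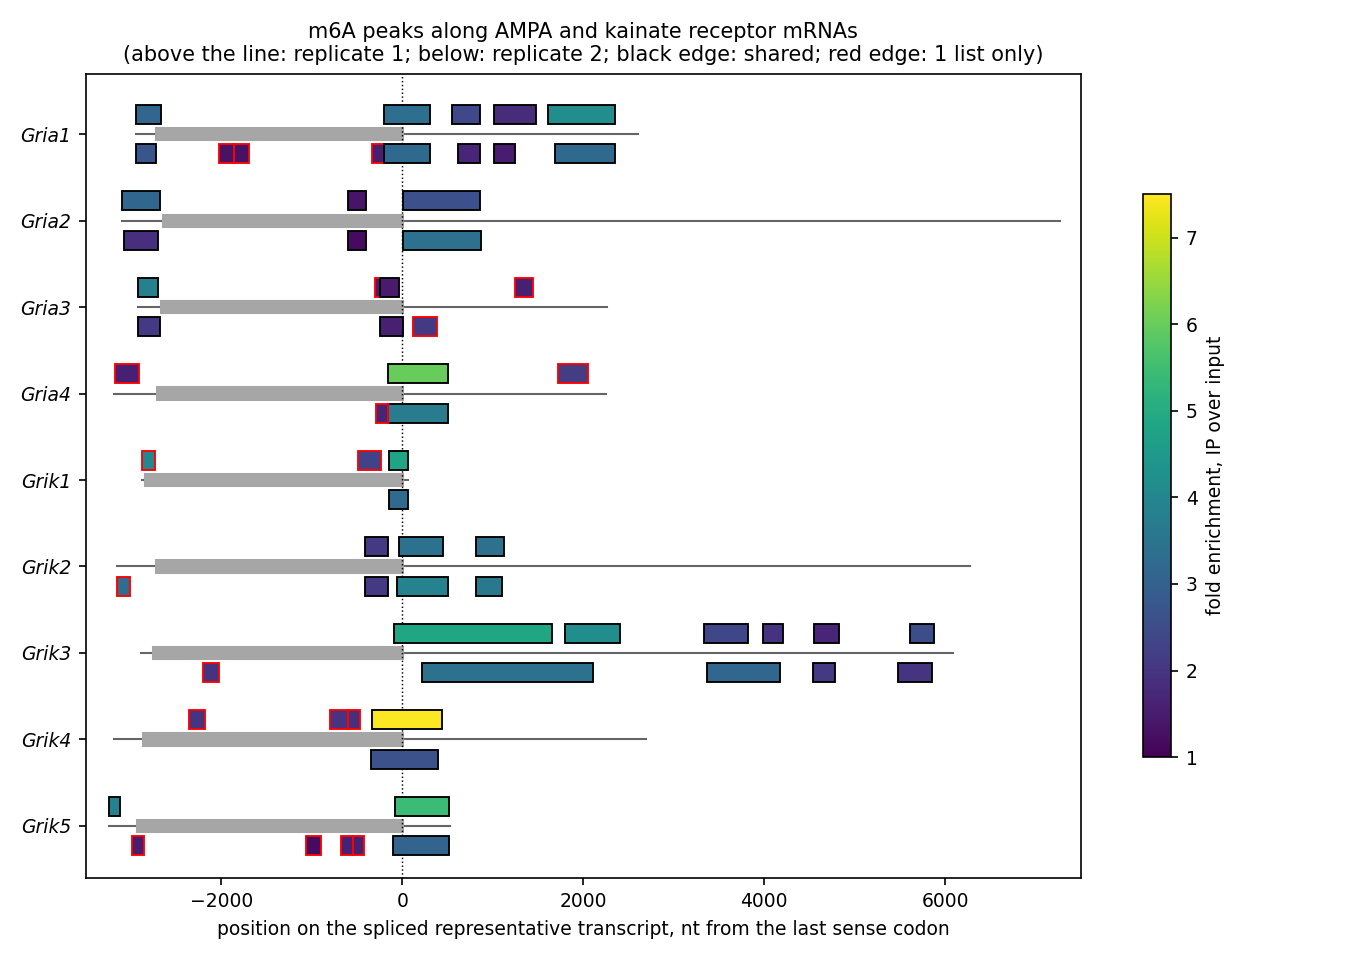
Peaks over the 9 receptor mRNAs, drawn on the spliced representative transcript of each gene, in nt from the last sense codon (dotted line at 0). The grey bar is the coding sequence and the thin line the UTRs, boxes above the line are peaks of replicate 1 and boxes below it peaks of replicate 2, the fill gives the fold enrichment, and the edge tells shared peaks (black) from peaks of 1 list (red). Peaks crowd at and after the stop codon in most rows, and the coding sequence holds mostly red-edged boxes; 2 peaks outside these exons are not drawn.

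Most shared intervals lay in the 3′ UTR. By the midpoint, 17 of 23 (73.9%) were in the 3′ UTR, 3 (13.0%) in the coding sequence (CDS) and 3 (13.0%) in the 5′ UTR. Of the 19713 shared intervals that could be placed on representative transcripts of all genes, 29.1% were in the 3′ UTR, 61.6% in the CDS and 9.26% in the 5′ UTR. Grik3 alone gave 6 of the 17 intervals in 3′ UTRs, and without it 11 of 17 intervals (64.7%) were there. In the 5′ UTR of the representative transcripts, Gria1, Gria2 and Gria3 had a shared interval and no Grik gene did. The 5′ UTR of Grik1 measured only 29 nt, and peaks of 1 list touched the first exon of Grik1, Grik2 and Gria4. In all, 3 of 9 members had a shared interval in the 5′ UTR, and 18% of all genes with a shared interval did.

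The 3 coding intervals were weak, and by the lower value of both replicates those of Gria2 and Gria3 were the lowest of the 23. In Gria2 exon 13 (chr3:80692333-80692532) the fold enrichment was 1.33 in replicate 1 and 1.20 in replicate 2. In Gria3 exon 15 (chrX:41672219-41672418) it was 1.48 and 1.58, and in Grik2 exon 16 (chr10:49113370-49113620) 2.09 and 2.08. Over the 15 pairs in 3′ UTRs the median was 3.41 in replicate 1 and 3.18 in replicate 2, and over the 3 pairs in 5′ UTRs 3.14 and 2.08.

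Within the AMPA receptor genes, Gria4 carried the strongest interval. Gria4 encodes GluA4, which is prominent in interneurons and in the cerebellum. Its only shared interval (chr9:4419648-4420360, 713 nt, exon 17) reached from 161 nt before to 507 nt after the end of the coding sequence and covered the stop codon. The fold enrichment there was 6.00 in replicate 1 and 3.68 in replicate 2. The lower of these values was higher than that of the strongest pair in 88.0% of the genes with a pair. The interval held 4 GGAC and no GGACT. The other peaks of Gria4 were in 1 list each, at 2.16, 1.63 and 1.57 in replicate 1 and at 1.66 in replicate 2, all below both values of the stop codon interval.

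Gria1 encodes GluA1, the subunit whose delivery to synapses is best known from long-term potentiation. It had 5 shared intervals, 1 in the 5′ UTR and 4 in its last exon. In the 5′ UTR (chr11:57011714-57012033) the enrichment was 3.14-fold in replicate 1 and 2.74-fold in replicate 2. The one over the stop codon (chr11:57327443-57327948) had 3.33 and 3.21, and held the GGACT shown above, 73 nt before the end of the coding sequence. Along the 3′ UTR of 2598 nt the values fell and rose again. At a midpoint of 734 nt after the stop they were 2.42 and 1.67, at 1128 nt 1.80 and 1.51, and at 2019 nt (chr11:57329328-57329996) 4.17 and 3.18. The distal interval was thus the highest of Gria1 in replicate 1, and the stop codon interval the highest in replicate 2, by 0.02 in the latter case. In the CDS of Gria1, replicate 2 alone had peaks, in exons 6, 7 and 15, at 1.31, 1.29 and 1.54.

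Gria2 encodes GluA2, whose RNA-edited form keeps AMPA receptors nearly impermeable to calcium. Its 3 shared intervals were in the 5′ UTR, in exon 13 and in the 3′ UTR, and Gria2 had no peak in 1 list only. In the 5′ UTR (chr3:80802439-80802811) the fold enrichment was 3.12 in replicate 1 and 1.89 in replicate 2. In the 3′ UTR (chr3:80687861-80688780) it was 2.58 and 3.39. The order of these sites was therefore opposite in the replicates. On the representative transcript of Gria2 the stop codon is in exon 15 and the interval begins with exon 16, 7 nt after the end of the coding sequence, so it did not cover the stop codon. The interval also reached into the intron before exon 16. Of the 7268 nt of this 3′ UTR, the shared interval took in only the part up to 860 nt.

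Gria3 encodes GluA3, on the X chromosome. It had the lowest strongest pair of the 9 members, in its 5′ UTR (chrX:41401307-41401531), with 3.80 in replicate 1 and 2.08 in replicate 2. The lower value exceeded that of 22.9% of the genes with a pair. Its highest peak in replicate 2, at 2.09 in the 3′ UTR (chrX:41676449-41676712), had no partner in replicate 1. The remaining peaks of 1 list were at 1.59, 1.46 and 1.57 in replicate 1. Gria3 was the only member without a shared interval in the 3′ UTR.

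All 5 kainate receptor genes had their strongest shared interval in the last exon, and both lists had their highest exonic peak of the gene at that place. Grik1, Grik2 and Grik3 encode GluK1, GluK2 and GluK3, which can form channels on their own. The shared interval of Grik1 (chr16:87896022-87896351) had 4.78 in replicate 1 and 3.26 in replicate 2. On the representative transcript it ran from 152 nt before to 66 nt after the end of the coding sequence, where that transcript ends. The interval, 330 nt long, continued past that end, within the annotated gene. Replicate 1 also had a peak of 3.98 at the first exon of Grik1 and one of 2.28 in exon 16, without partners in replicate 2.

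In Grik2 the replicates were close to each other at all 3 shared intervals. Over its stop codon (chr10:49100657-49101147) the fold enrichment was 3.44 in replicate 1 and 3.87 in replicate 2. This interval held no GGAC, and no motif other than GGAC and GGACT was searched. At 959 nt after the stop (chr10:49100009-49100295), where GGACT occurred 2 times, the fold enrichment was 3.41 and 3.60. Replicate 2 had a further peak of 3.26 over exon 1 of Grik2, where an unconfirmed transcript of the opposite strand (Gm48123) is annotated as well.

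Grik3 had the most extended signal. Its 3′ UTR of 6082 nt held 6 shared intervals, the first of which was the longest of all members (chr4:125708309-125709744, 1436 nt), with 4.85 in replicate 1 and 3.43 in replicate 2. The replicate 1 peak of this interval covered the stop codon, and the part common to both lists began 221 nt after the end of the coding sequence. A second replicate 1 peak of 4.18 (common part chr4:125709881-125710191) lay within the same replicate 2 peak of 3.43, so that replicate 2 had 1 peak where replicate 1 had 2. Further along, the fold enrichments were 2.39 and 3.15 at 3591 nt, 1.95 and 3.15 at 4083 nt, 1.68 and 2.07 at 4668 nt and 2.50 and 1.98 at 5728 nt after the stop codon. The value of 3.15 again belongs to 1 peak of replicate 2. In 3 of these 4 places replicate 2 was higher, the reverse of the start of the 3′ UTR.

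Grik4 and Grik5 encode GluK4 and GluK5, the high-affinity subunits that need a partner among GluK1, GluK2 and GluK3 to form a channel. Grik4 had the highest fold enrichment of a shared exonic peak in any member, 7.45 in replicate 1, at its stop codon (chr9:42520442-42521172), and 2.63 in replicate 2. No other pair of the members had a wider ratio between the lists. Among all exonic pairs the replicate 1 value stood at percentile 98.9 and the replicate 2 value at percentile 65.8. A small RNA gene of the same strand (Gm24420) is annotated within this interval. Grik4 had 3 more peaks in replicate 1, in exons 19, 18 and 7, at 1.89, 1.99 and 2.01, none of them in replicate 2.

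The shared interval of Grik5 (chr7:25009859-25010456) covered the stop codon and nearly the whole 3′ UTR of 520 nt, with 5.43 in replicate 1 and 3.07 in replicate 2. It was the richest in motifs, with 13 GGAC, of which 4 were GGACT, at 143, 215, 231 and 289 nt after the end of the coding sequence. Replicate 2 alone had peaks in exons 18 and 19, exon 16 and exon 2 of Grik5, at values from 1.19 to 1.59. A replicate 1 peak of 3.82 touched exon 1 of Grik5 and overlapped a replicate 2 peak. Their common bases lay outside Grik5, over exons of the neighbouring gene Zfp574, and are not counted among the 23 shared intervals. The replicate 1 peak itself is counted below among the shared exonic peaks.

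Shared signal near the stop codon was present in most of the 9 genes, though not in most of the 23 intervals, and it was common in other genes too. A base of a shared interval lay within 200 nt of the stop codon in 8 of 9 members (88.9%), all but Grik3, and in 69.2% of the genes with a shared interval. With the midpoint as the measure, this held for 5 of 9 (55.6%), namely Gria1, Gria3, Gria4, Grik1 and Grik4, and for 45.4% of the genes. Counted by interval, 5 of 23 midpoints lay within 200 nt of the stop codon, and 23.0% of all placed intervals did. The stop codon itself was covered by 6 of 23 intervals, in Gria1, Gria4, Grik1, Grik2, Grik4 and Grik5. More than 1000 nt past the stop codon lay 7 of 23 intervals (30.4%), 2 of Gria1 and 5 of Grik3, and 6.14% of all placed intervals. The 3′ UTRs of the members had a median length of 2598 nt, against 1155 nt for the genes with a shared interval.

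**Figure D2:**
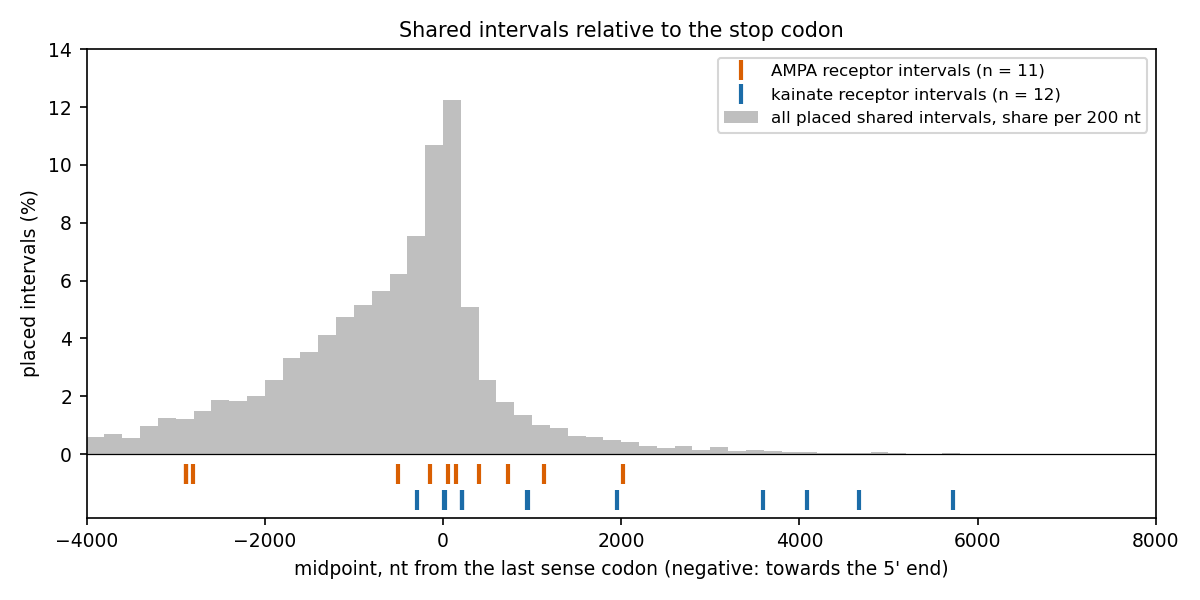
Midpoints of shared intervals on the representative transcripts, in nt from the last sense codon. Grey bars give the share of all 19713 placed intervals per 200 nt, and the ticks under the axis are the 11 AMPA receptor and 12 kainate receptor intervals. Kainate receptor ticks reach beyond 5000 nt after the stop codon, and the AMPA receptor ticks farthest upstream are those of the 5′ UTRs.

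The share of intervals with GGACT was close to that in other genes. GGACT was present in 10 of 23 intervals (43.5%), and in 43.1% of all placed intervals. In the 200 nt around the midpoint, which removes differences in length, it was present in 7 of 23 (30.4%) and in 27.5% of all. Of the 6 intervals over a stop codon, GGACT was in 2, those of Gria1 and Grik5. The shorter GGAC was in 19 of 23 intervals, and in 82.0% of all. The 4 without it were both intervals of Gria3 and those of Grik2 over the stop codon and in exon 16. Within the last 60 coding bases, printed above for 7 genes, GGAC occurred in Gria4, Grik3, Grik4 and Grik5, with its A at 7, 40, 28 and 24 nt before the last coding base. That is 4 of 9 members, and 24.5% of the 21839 representative transcripts searched the same way. A match to these letters is a description of the sequence and does not show that the adenosine was methylated.

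Related subunits were partly covered at matching codons. Aligned over each family, the proteins of the AMPA receptor genes shared 67.7% to 73.1% of their residues, those of Grik1, Grik2 and Grik3 73.4% to 79.7%, and those of Grik4 and Grik5 70.3%. The last codons were covered by peaks of both lists in Gria1 and Gria4, and in neither list in Gria2. In Gria3 only the replicate 2 peak reached the last codon, and the replicate 1 peak ended at alignment column 911 of 925. The codons just before the C-terminal stretch (alignment columns 813 to 857) were covered in both lists in Gria3, and in replicate 2 alone in Gria1 and Gria4. In the kainate receptors the codons of columns 810 to 893 were covered in both lists in Grik2, in replicate 1 alone in Grik1 and in replicate 2 alone in Grik5. A replicate 1 peak of Grik4 covered columns 810 to 853. Columns 198 to 258 were covered in replicate 2 alone in Grik3 and in replicate 1 alone in Grik4. Some coding peaks of 1 list thus lay at codons that a peak of another member also covered. Only the exonic part of each peak was aligned, so a match can mean no more than the same exon. How often such matches arise by chance was not tested, and other members do not stand in for a replicate. The highest value among the peaks in internal coding exons was 2.28, in Grik1.

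The spread between the replicates limits how far single values can be ranked. Of the members' exonic peaks, 24 of 35 (68.6%, 95% Wilson interval 52.0% to 81.4%) of replicate 1 and 21 of 31 (67.7%, 50.1% to 81.4%) of replicate 2 were shared. These intervals cover counting error only, and they treat the peaks as independent although several came from the same gene. For exonic peaks of all genes the shares were 67.8% and 76.8%. The shared peaks of the members had a median fold enrichment of 3.23 in replicate 1 and 2.74 in replicate 2, and those in 1 list 1.89 and 1.57. The latter ranged from 1.46 to 3.98 in replicate 1 and from 1.19 to 3.26 in replicate 2, so the ranges of shared and unshared peaks overlapped.

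Peaks were paired where both overlapped each other more than any other peak. In these 21 pairs the median was 3.14 in replicate 1 and 2.74 in replicate 2, against 2.98 and 2.30 for all 20993 exonic pairs. Replicate 1 was higher in 15 of 21 pairs (71.4%) and in 78.3% of all pairs. By family, the medians were 3.12 and 2.08 over the 11 AMPA receptor pairs and 3.42 and 3.11 over the 10 kainate receptor pairs. The families overlapped in both lists, from 1.33 to 6.00 and from 1.68 to 7.45 in replicate 1. Ordered by the lower value of the strongest pair, Gria4 (3.68) came first, then Grik2 (3.44), Grik3 (3.43), Grik1 (3.26), Gria1 (3.21), Grik5 (3.07), Grik4 (2.63), Gria2 (2.58) and Gria3 (2.08). Neighbours from Grik2 to Grik5 were less far apart than the 2 replicates of Grik1, Grik3 or Grik5, and the replicate 1 values alone would put Grik4 first.

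**Figure D3:**
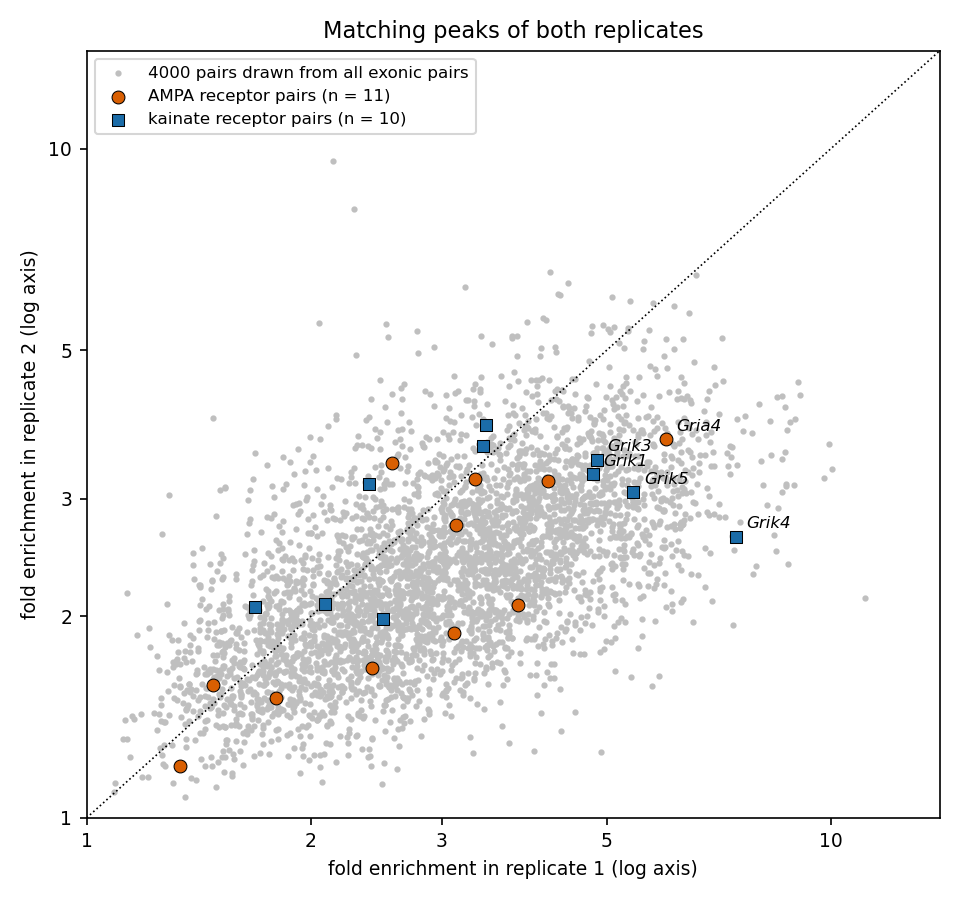
Fold enrichment of matching peaks in replicate 1 (horizontal) and replicate 2 (vertical), both on log axes, with the dotted line at equal values. Grey points are 4000 pairs drawn from all exonic pairs, circles the 11 AMPA receptor pairs and squares the 10 kainate receptor pairs; names mark pairs above 4.5 in replicate 1. Grik4 lies far below the dotted line, at 7.45 and 2.63, and most member points lie within the grey cloud below that line.

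Fewer of the intervals of AMPA and kainate receptor genes lay in the CDS than in the other glutamate receptor genes, a difference that was not tested. The NMDA receptor subunits, which form the calcium-permeable coincidence detectors of the synapse, had 10 of 19 placed shared intervals (52.6%) in the CDS, and 8 (42.1%) in the 3′ UTR. The metabotropic receptors, which signal through G proteins, had 19 of 25 (76.0%) in the CDS and 5 in the 3′ UTR. In the AMPA receptor genes 2 of 11 (18.2%) were in the CDS, and in the kainate receptor genes 1 of 12 (8.33%). The gene structures differed too. The longest coding exon measured 258 nt to 423 nt in the 9 members, with coding sequences split over 15 to 19 exons. It had a median of 1134 nt in the NMDA receptor genes and of 936.5 nt in the metabotropic receptor genes, and of 364.5 nt in all genes with a shared interval. The part of exon length in the difference was not tested.

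**Figure D4:**
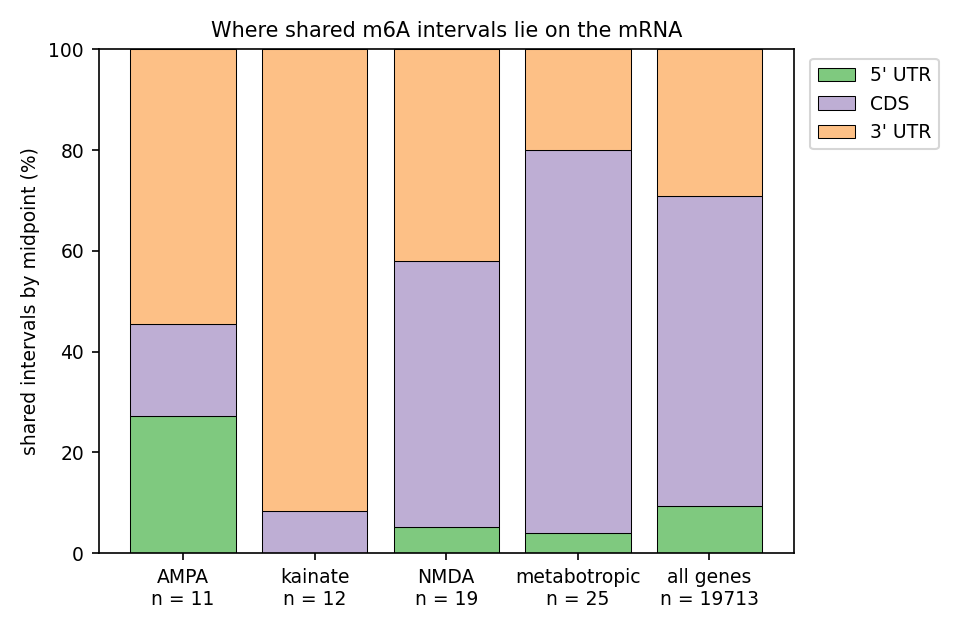
Share of placed shared intervals with their midpoint in the 5′ UTR, the CDS and the 3′ UTR, for AMPA, kainate, NMDA and metabotropic receptor genes and for all genes; n is the number of intervals. The CDS part is smallest for the kainate (8.33%) and AMPA (18.2%) receptor genes and largest for the metabotropic receptor genes (76.0%).

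The genes that act on these receptors were as widely covered. All 12 auxiliary subunits of AMPA receptors, which govern trafficking and gating, had a shared interval, in 10 cases with at least 2-fold enrichment in both lists. The highest were Cnih3, a cornichon protein, at 5.85 and 4.38, and Cacng2, which encodes stargazin, at 3.97 and 3.83. Both auxiliary subunits of kainate receptors had one, Neto2 at 4.49 and 2.78 and Neto1 at 2.12 and 2.09. All 13 scaffold and trafficking partners had a shared interval, in 10 cases with at least 2-fold enrichment in both lists, led by Grip2 (4.86 and 3.79), which binds the tails of AMPA receptors, and Dlg3 (5.24 and 3.68). The 3 genes of the ADAR family, Adar, Adarb1 and Adarb2, had one as well, with 4.47 and 4.00 for Adarb1, whose product edits the Gria2 pre-mRNA, and 3.83 and 3.59 for Adar.

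All 7 NMDA receptor genes had a shared interval, led by Grin3a (6.05 and 4.30) and Grin2a (6.36 and 4.12). Of the 8 metabotropic receptor genes, 7 had one, among them Grm8 (7.51 and 3.43). Grm6, the receptor of retinal bipolar cells, had no peak in either list. The presence of a shared interval was thus common to nearly all genes of these lists, at a background of 45.5% of all protein-coding genes.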

How the data were processed

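The authors' methods state that reads were trimmed with Cutadapt and Trimmomatic and aligned to mm10 with TopHat, and that peaks were called with MACS2, for each IP replicate against its own input. No fragment model was used, duplicates were kept, and the replicates were not pooled. Keeping duplicates can raise values that rest on few molecules. The deposited value of each peak is its fold enrichment (IP divided by input, a linear ratio), beside its chromosome, start and end. The lists hold no counts, summits or strand, so depth is unknown. Columns of other samples: 0.

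Peaks were placed on GENCODE M21 exons with Python 3.11.15, pandas 2.3.3 and pysam 0.24.0. Shared peaks overlapped by at least 1 bp. The representative transcript of a gene had the longest CDS. Distances count spliced nt from the last base of the last sense codon. Proteins, translated from the reference, were aligned with MAFFT 7.526. Overlap, pairing and placement were tested on simulated data. All values are descriptions without a test. Beside the members, the text names the 2 genes of each list with the highest lower fold enrichment, and those without a shared interval; a few of these genes are not reported here. Members and lists were chosen with earlier results of these data known. Alternatives were other overlap rules, a minimum fold enrichment of 2, other exon rules, other windows, GGAC for GGACT, and each replicate left out.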

Additional observations from a re-analysis of the deposited data

Results flagged for a closer look

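Outside the annotated exons, 9 shared intervals lay within introns of the receptor genes or up to 2000 bp around them, and each value below is the lower of both fold enrichments. The highest was in an intron of Grik1 (chr16:87901012-87901715), at 4.96, with 8.87 in replicate 1. This is above the stop codon interval of the same gene in both lists, at percentiles 99.8 and 98.9 of the pairs. An intron of Grik2 (chr10:49753105-49753491) had 3.33, with 7.57 in replicate 1, and an intron of Grik5 (chr7:25039236-25039497) had 3.62, with 4.87 in replicate 2. Gria3 had 2.16 (chrX:41656631-41656861) and 1.94 (chrX:41665212-41665531). Upstream of Grik3 there were 3 intervals, at 2.50 (chr4:125489430-125489676), 2.67 (chr4:125489809-125489885) and 2.32 (chr4:125490384-125490623), the last of them over predicted exons in RefSeq. The first 2 had the same replicate 1 value, 3.98, and may belong to 1 peak of that list. Upstream of Grik5, over exons of Zfp574 (chr7:25072614-25073079), the value was 2.42.

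The lists also differed in introns. Replicate 1 had 30 intronic peaks in the 9 genes, 5 of them shared, and replicate 2 had 5, all shared. Over all genes, 31979 of the 38533 peaks of replicate 1 were exonic, and 28259 of the 30134 of replicate 2. Replicate 1 thus had more peaks outside exons in the whole data as well. Those totals also take in peaks between genes, and whether the intronic difference was larger in these genes was not tested. Gria1 had 10 intronic peaks in replicate 1 and 0 in replicate 2. The highest single value in any intron was 10.6, in Grik1 in replicate 1, without a partner. The cause of this difference was not tested.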

How the results depend on the processing

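All 9 genes had a shared peak under each of the 5 other rules for overlap, fold enrichment and exons, and a peak in either list alone. Of 47 alternative values, 33 stayed close to the reported one and 14 moved. With midpoints within 100 bp, 51.4% of replicate 1 peaks were shared. With at least 2-fold enrichment asked of each list, 15 shared intervals were left, 82.4% of replicate 2 peaks were shared, the pair medians were 3.62 and 3.20, and 5 intervals held GGACT. Leaving out 1 replicate removes the demand for overlap. The peaks of the remaining list then numbered 31 to 35, 14 to 16 of them held GGACT, and the median was 2.42 in replicate 1 without replicate 2 and 2.08 in replicate 2 without replicate 1. With a window of 100 nt around the stop codon 3 intervals qualified, with 400 nt 8, and by any base 9. GGAC in place of GGACT was found in 19. No paired analysis was possible because the input samples came without processed files here and no result comes from a test. Depth is unknown, and its part in peaks of 1 list was not tested.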
